A study of Arabidopsis thaliana with 18 samples.

Results

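The late embryogenesis abundant (LEA) proteins of Arabidopsis thaliana were followed as a family of 52 genes, 50 of them in 10 classes and 2 (AT2G33690 and AT1G22600) with no class assigned. The genes were chosen as annotated members of the LEA classes, with earlier results of these data known. They were found by their identifiers without a filter on expression, and all 52 were among the 27587 genes of the count table. The samples were whole seeds produced at 23 °C, from ros1-4, a T-DNA insertion mutant of the DNA demethylase gene ROS1 (AT2G36490) in the Col-0 background, and from the wild-type Col-0. Each genotype was sampled dry and mature, at stage II of germination (seed coat ruptured, radicle tip visible) and at stage IV (seed coat ruptured, longer radicle), the seeds being imbibed in water in the light after drying. There were 3 biological replicates in each of the 6 groups. The mutant was represented by 1 insertion line, and embryo, endosperm and seed coat were in the same extract.

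Most LEA proteins are very hydrophilic, and many accumulate while the embryo dries and are thought to protect membranes and enzymes during water loss. Transcripts of many LEA genes are stored in the dry seed and decline after imbibition. The name covers several families, among them the Em proteins (LEA_5), the dehydrins, the helical LEA_4 proteins and the seed maturation proteins (SMP). Many LEA genes are induced by abscisic acid (ABA) through the transcription factors ABI3 (AT3G24650) and ABI5 (AT2G36270) and the promoter element called ABRE. Some dehydrins and the COR15 proteins are also known from cold and drought responses of leaves.

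The libraries held 18737837 to 20787603 counts each, so depth differed little. As a check of the genotype labels, ROS1 had 1219, 1466 and 1466 counts in ros1-4 mature seeds, against 2578, 2455 and 2547 counts in Col-0 mature seeds (log2 fold change -0.55). At stage II there were 1286, 1256 and 1221 counts in the libraries labelled ros1-4, against 256, 273 and 281 counts in Col-0 (2.04). At stage IV there were 1134, 1203 and 1331 counts in the libraries labelled ros1-4, against 296, 312 and 252 counts in Col-0 (1.99). The targeted gene was thus lower in mutant mature seeds and higher in the germinating libraries labelled ros1-4, and every genotype direction given for germination rests on those labels. Whether a ROS1 transcript carries the insertion cannot be read from gene counts. Storage reserve transcripts (9 genes for cruciferins, albumins and oleosins) took 21.8 to 24.9% of counts in ros1-4 mature seeds, against 20.1 to 20.5% in Col-0, and 0.197 to 0.282% in ros1-4 at stage II, against 0.0330 to 0.0461% in Col-0. In bulk seed RNA, fewer cells of a type and less RNA per cell cannot be told apart.

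The regions upstream of 6 members are shown first, because LEA genes are known to respond to ABA through upstream elements such as the ABRE. Not all of these windows hold an ABRE. Each sequence is the 250 bases before the annotated gene start, 5′ to 3′ on the strand of the gene, from RefSeq, build TAIR10.1. Capitals mark the ABRE core ACGTG, the RY core CATGCA and the DRE core CCGAC on either strand, and the G-box CACGTG always holds an ABRE core. AT4G36600 and AT3G15670 (both LEA_4) and EM6 (AT2G40170) stand for the genes of the dry seed, M17 (AT2G41260) for a seed gene with the opposite difference between genotypes, and the dehydrins COR47 (AT1G20440) and HIRD11 (AT1G54410) for members that were higher during germination. Their windows lie at chr4:17263314-17263563 (plus strand), chr3:5310989-5311238 (minus strand), chr2:16780369-16780618 (minus strand), chr2:17206202-17206451 (plus strand), chr1:7086874-7087123 (minus strand) and chr1:20310851-20311100 (minus strand), in the order of the lines.
AT4G36600: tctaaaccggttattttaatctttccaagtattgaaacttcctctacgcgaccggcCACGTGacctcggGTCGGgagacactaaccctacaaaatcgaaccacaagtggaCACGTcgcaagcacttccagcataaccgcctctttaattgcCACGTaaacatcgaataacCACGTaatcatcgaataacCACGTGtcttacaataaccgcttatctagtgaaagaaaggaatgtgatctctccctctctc
AT3G15670: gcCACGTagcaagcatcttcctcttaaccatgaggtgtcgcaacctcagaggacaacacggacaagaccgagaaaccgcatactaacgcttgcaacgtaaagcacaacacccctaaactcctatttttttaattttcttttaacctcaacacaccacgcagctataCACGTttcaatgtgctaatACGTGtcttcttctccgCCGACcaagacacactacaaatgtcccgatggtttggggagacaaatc
EM6: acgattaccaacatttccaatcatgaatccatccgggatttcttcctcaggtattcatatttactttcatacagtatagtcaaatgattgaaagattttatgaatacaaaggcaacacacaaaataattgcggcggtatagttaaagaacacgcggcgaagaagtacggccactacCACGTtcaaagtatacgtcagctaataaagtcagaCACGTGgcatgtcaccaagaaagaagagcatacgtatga
M17: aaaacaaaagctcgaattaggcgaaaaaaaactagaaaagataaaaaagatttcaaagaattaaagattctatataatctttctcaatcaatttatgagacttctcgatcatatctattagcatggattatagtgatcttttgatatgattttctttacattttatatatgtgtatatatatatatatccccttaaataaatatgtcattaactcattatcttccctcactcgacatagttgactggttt
COR47: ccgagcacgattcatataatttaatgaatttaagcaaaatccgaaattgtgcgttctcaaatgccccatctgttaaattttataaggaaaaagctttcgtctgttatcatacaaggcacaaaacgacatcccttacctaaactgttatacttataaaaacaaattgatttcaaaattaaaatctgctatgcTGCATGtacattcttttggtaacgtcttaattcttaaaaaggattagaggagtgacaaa
HIRD11: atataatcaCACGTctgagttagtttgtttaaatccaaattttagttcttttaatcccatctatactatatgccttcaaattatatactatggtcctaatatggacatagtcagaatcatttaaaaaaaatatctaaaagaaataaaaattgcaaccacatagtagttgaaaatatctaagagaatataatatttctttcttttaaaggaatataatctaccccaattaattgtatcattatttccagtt

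The ABRE core was found in 37 of the 52 windows (71.2%), against 22.9% of 27390 windows of the same length over all genes, and at 2 or more places in 25 (48.1%), against 4.99%. The G-box was found in 23 (44.2%), against 6.5%. The RY core was in 9 windows (17.3%), against 8.44%, and the DRE core in 17 (32.7%), against 12%. AT4G36600 and AT3G53040 held the most ABRE cores, 5 each. The M17 window held none of these letters, and the COR47 window an RY core alone. A match describes the letters and was not tested as a binding site.

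In mature dried seeds the LEA family was a large part of the seed RNA. Its genes took 10.9 ± 0.701% of counts in ros1-4 and 8.88 ± 0.249% in Col-0 (SD, n = 3 each), and the ranges did not overlap. At stage II the share was 0.449 ± 0.0229% in ros1-4 and 0.661 ± 0.271% in Col-0, and at stage IV 0.340 ± 0.0737% in ros1-4 and 0.214 ± 0.0242% in Col-0. The 3 Col-0 libraries at stage II had 0.770, 0.861 and 0.353%, so that replicate 3 lay below all ros1-4 libraries of that stage (0.423, 0.459 and 0.465%). That library was the lowest of its group for 32 of the 42 members above 3 counts in the group. Replicate 3 of ros1-4 at stage IV was the highest of its group for 39 of 44 members, and replicate 3 of Col-0 at stage IV for 30 of 43. Replicate 1 at stage IV was the lowest for 31 of 44 members in ros1-4 and 32 of 43 in Col-0. In mature seeds, replicate 2 of ros1-4 was the lowest of its group for 37 of 47 members. The same counts were not made over all genes.

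**Figure D1:**
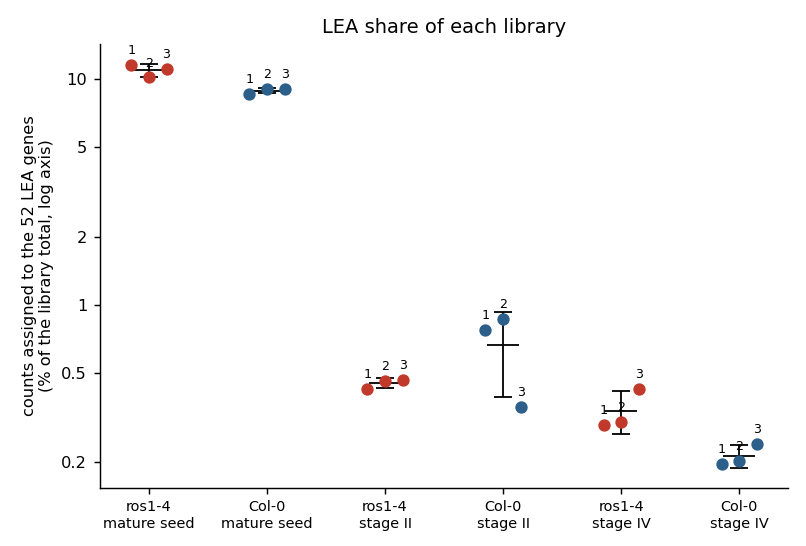
Share of counts assigned to the 52 LEA genes in each of 18 libraries (y, percent of the library total, log axis; x, genotype and stage; numbers, replicates; bars, mean ± SD of 3). The family took 10.2 to 11.5% of counts in ros1-4 mature seeds and 8.59 to 9.04% in Col-0 mature seeds, and no more than 0.861% in the germinating libraries, where Col-0 replicate 3 at stage II stood below its group.

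A few genes made up most of the mature share. The dehydrin RAB18 (AT5G66400), named for its response to ABA (chromosome 5, 26518277 to 26519447, minus strand), took 2.05% of counts in ros1-4 mature seeds and 1.54% in Col-0 mature seeds. AT3G15670 (chromosome 3, 5309886 to 5310988, minus strand) took 1.87% in ros1-4 and 1.27% in Col-0. These 2 genes were among the 10 most abundant transcripts of every mature library. They were followed by AT2G21490 (a dehydrin), EM6, AT3G17520, M17, LEA18 (AT2G35300), AT2G42560, LEA4-5 (AT5G06760) and AT3G53040, and the 10 genes together held 73.7% of the family's counts in mature seeds.

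Levels are given in CPM, counts scaled to a common library size after TMM normalisation, which removes the effect of a few very abundant transcripts on the rest. TMM set the effective size of mature libraries to 0.52 to 0.67 of their totals and that of germinating libraries to 1.26 to 1.33, so CPM of mature seeds exceed the plain share of counts. Per kilobase of coding length, RAB18 led in mature seeds with 68124 CPM per kb in ros1-4 and 41226 in Col-0, followed by EM6 with 55976 in ros1-4 and 35828 in Col-0. AT3G15670, AT2G21490 and LEA18 came next in both genotypes.

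Not every annotated member was found in seeds. AT2G03740 had no count in any library, which allows up to 3 counts per library. AT3G53770, COR15A (AT2G42540), LEA3 (AT1G02820), AT2G33690, AT5G53820 and COR15B (AT2G42530) had 0 to 20 counts in every library. COR15A and COR15B encode chloroplast proteins of the cold response. These 7 members could not be tested at stage II against mature seeds.

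**Figure D2:**
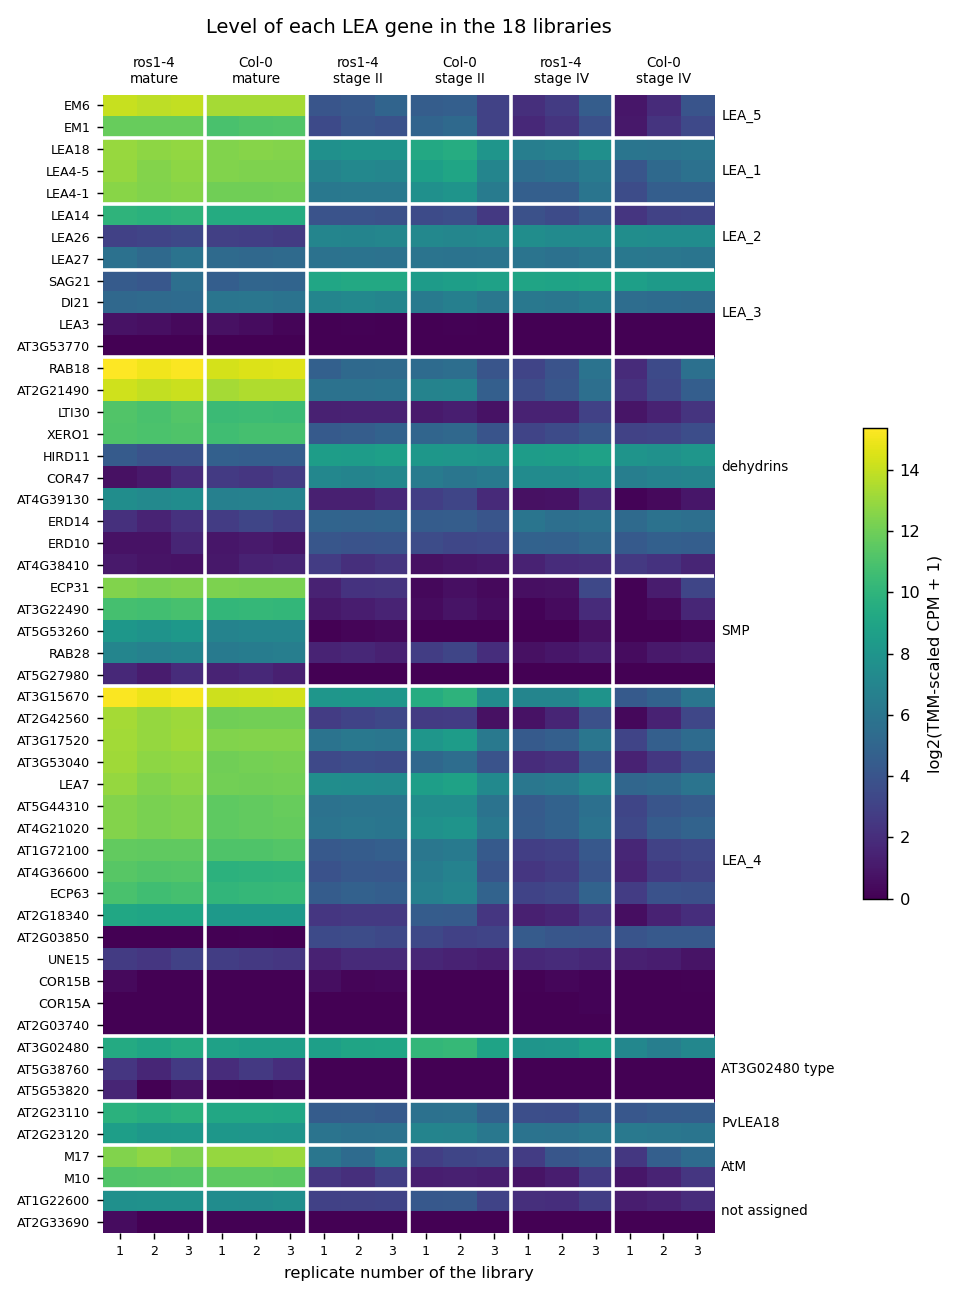
Level of each of the 52 LEA genes (y, grouped by class) in the 18 libraries (x, by genotype, stage and replicate), as log2 of TMM-scaled CPM plus 1 (colour). Most members are high in mature seeds of both genotypes and low at stages II and IV, with RAB18 and AT3G15670 the highest, while LEA26, SAG21, COR47, ERD10, ERD14, HIRD11 and AT2G03850 show the reverse.

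The first question was how the family changed as the seeds germinated. At stage II, 35 of 45 tested members fell in ros1-4 and 9 rose, at an adjusted p under 0.05 in edgeR's quasi-likelihood test. Over all genes 39.3% fell and 50.3% rose in that comparison. In Col-0, 35 of 45 fell and 10 rose, against 41% and 47.3% of all genes. The median log2 fold change of the tested members was -6.47 in ros1-4 and -4.27 in Col-0, against 0.33 and 0.17 over all genes. With members at the floor of 3 counts per library placed at their bound, the medians were -6.28 in ros1-4 and -4.22 in Col-0. Called in both genotypes were 34 falling and 8 rising members.

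Among those that fell, RAB18 had 694, 1014 and 1044 counts at stage II in ros1-4, against 417314, 351219 and 406505 counts in mature seeds (log2 fold change -10.22 ± 0.27 SE). In Col-0 it had 989, 1081 and 377 counts at stage II, against 265457, 294618 and 314280 counts in mature seeds (-9.47 ± 0.48). The stages were far apart in every library. EM6, an Em protein gene used as a marker of late seed maturation, had 421, 518 and 828 counts at stage II in ros1-4, against 168617, 153615 and 158231 counts in mature seeds (-9.56 ± 0.28). In Col-0 it had 546, 558 and 174 counts, against 127927, 125983 and 124077 counts in mature seeds (-9.19 ± 0.49). EM1 (AT3G51810) fell too (-8.09 in ros1-4, -6.52 in Col-0).

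All 5 SMP genes fell in both genotypes. ECP31 (AT3G22500), a homologue of a carrot embryogenic cell protein, had 48, 102 and 111 counts at stage II in ros1-4, against 54852, 51935 and 54136 counts in mature seeds (-10.74 ± 0.23), and 7, 13 and 7 counts in Col-0, against 63524, 61521 and 60202 counts (-13.70 ± 0.24). AT5G53260 was at the floor at stage II in Col-0 with 1, 0 and 1 counts, at least 984-fold lower than in mature seeds. AT5G27980 had no count at stage II in either genotype and was at least 20.1-fold lower than in mature seeds in ros1-4 and at least 15.9-fold lower in Col-0. The same held for AT5G38760, a relative of AT3G02480, at least 35.3-fold lower in ros1-4 and at least 29.2-fold lower in Col-0.

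Of the 13 tested LEA_4 genes, 12 fell in both genotypes. AT3G15670 kept 7155, 7620 and 7391 counts at stage II in ros1-4, against 386739, 318981 and 369034 counts in mature seeds (-7.08 ± 0.20). In Col-0 it kept 17571, 22655 and 4092 counts, against 229627, 242356 and 249901 counts in mature seeds (-5.01 ± 0.57). AT2G42560 had a log2 fold change of -10.26 in ros1-4 and -10.13 in Col-0, and AT3G53040 one of -9.62 in ros1-4 and -7.23 in Col-0. UNE15 (AT4G13560) changed least of these genes (-1.33 in ros1-4, -1.54 in Col-0), and with library size alone its value in ros1-4 was 0.03. The 3 LEA_1 genes all fell. LEA18 was at -5.11 in ros1-4 and -3.47 in Col-0, and LEA4-5 at -5.76 in ros1-4 and -3.97 in Col-0.

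The members that rose were mostly dehydrins and LEA_3 genes. COR47, a dehydrin known from the cold response (chromosome 1, 7084409 to 7086873, minus strand), had 3700, 3349 and 3712 counts at stage II in ros1-4, against 6, 11 and 30 counts in mature seeds (6.36 ± 0.19). In Col-0 it had 2081, 1546 and 1826 counts, against 64, 54 and 71 counts in mature seeds (3.86 ± 0.13). Its neighbour ERD10 (AT1G20450), a cold- and drought-related dehydrin with no gene between them, had 437, 394 and 411 counts in ros1-4, against 7, 7 and 21 counts in mature seeds (3.67 ± 0.23). In Col-0 ERD10 had 269, 204 and 238 counts, against 11, 15 and 10 counts in mature seeds (3.30 ± 0.21). For both genes the stages did not overlap.

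HIRD11, a small dehydrin that binds metal ions, had 10060, 9925 and 11049 counts at stage II in ros1-4, against 204, 152 and 148 counts in mature seeds (4.46 ± 0.12). In Col-0 it had 6825, 6211 and 6013 counts, against 312, 290 and 284 counts in mature seeds (3.44 ± 0.08). The dehydrin ERD14 (AT1G76180) had 817, 779 and 830 counts in ros1-4, against 34, 20 and 36 counts in mature seeds (3.27 ± 0.15), and 512, 526 and 379 counts in Col-0, against 71, 104 and 78 counts (1.5 ± 0.18). Neither dehydrin overlapped between stages. SAG21 (AT4G02380), a LEA_3 gene also known from senescence and oxidative stress, had 535, 615 and 599.8 CPM in ros1-4, against 20.2, 16.9 and 47.0 CPM in mature seeds (4.33 ± 0.24), and 349, 381 and 433 CPM in Col-0, against 23.0, 30.6 and 29.3 CPM (3.77 ± 0.13). DI21 (AT4G15910), a drought-induced LEA_3 gene, had 126, 139 and 124 CPM in ros1-4, against 35.2, 38.3 and 40.4 CPM in mature seeds (1.72 ± 0.07). In Col-0 DI21 had 77.2, 96.2 and 68.0 CPM, against 60.1, 63.5 and 55.5 CPM in mature seeds (0.39 ± 0.12, adjusted p = 0.0126), and the call was lost without replicate 3 of Col-0 mature seeds (adjusted p = 0.058).

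Outside these families, LEA26 (AT2G44060) of class LEA_2 had 127, 123 and 128 CPM at stage II in ros1-4, against 6.87, 7.99 and 8.88 CPM in mature seeds (3.94 ± 0.09), and 145, 128 and 142 CPM in Col-0, against 6.41, 6.26 and 5.42 CPM (4.48 ± 0.10). AT2G03850, the one LEA_4 gene that rose, had 278, 294 and 251 counts in ros1-4, against 0, 0 and 0 counts in mature seeds, and 223, 160 and 197 counts in Col-0, against 0, 1 and 0 counts. It was at least 34.1-fold higher in ros1-4 and at least 33.3-fold higher in Col-0. Both genes were near their lowest levels in dry seeds and were separate between the stages in every library.

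The other 3 tested members were called in 1 genotype or in opposite directions. AT3G02480 had 408, 497 and 510.4 CPM at stage II in ros1-4, against 659.7, 518 and 653 CPM in mature seeds (-0.42 ± 0.11). In Col-0 it had 1164, 1243 and 469.6 CPM, against 445, 386 and 391 CPM in mature seeds (1.2 ± 0.30). With library size alone its value in ros1-4 was 0.94, a rise in place of a fall. The dehydrin AT4G38410 rose in ros1-4, where it had 156, 89 and 114 counts, against 11, 8 and 7 counts in mature seeds (2.30 ± 0.32). In Col-0 it was called lower with 15, 19 and 24 counts, against 12, 22 and 25 counts (-1.01 ± 0.35), but its CPM overlapped and the call was lost without replicate 2 or 3 of mature seeds or replicate 1 or 2 of stage II (adjusted p up to 0.0963). LEA27 (AT2G46140) had 58.0, 55.4 and 59.3 CPM in Col-0, against 38.0, 35.1 and 38.5 CPM in mature seeds (0.59 ± 0.07), and was not called in ros1-4 (0.12 ± 0.11).

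**Figure D3:**
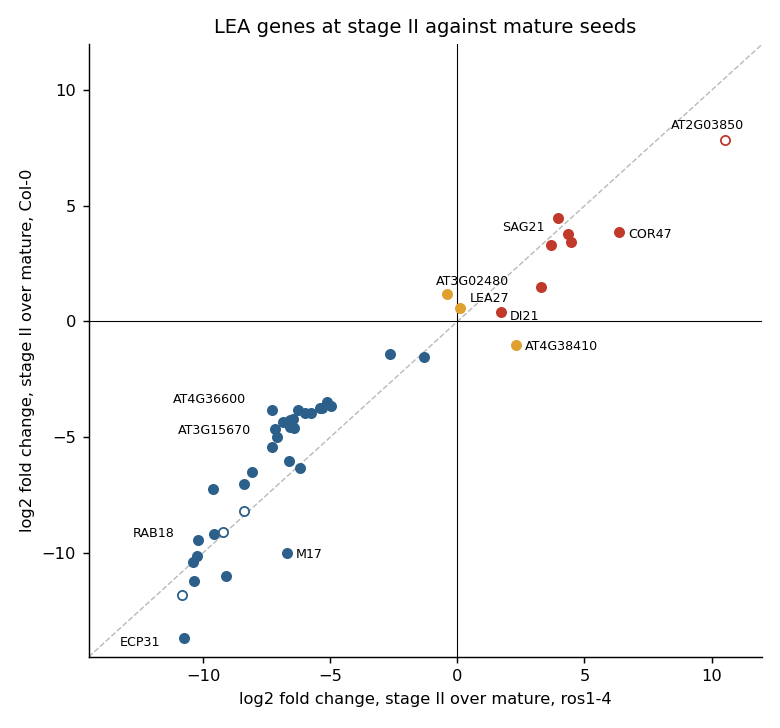
Log2 fold change of each tested LEA gene at stage II over mature seeds, in ros1-4 (x) and Col-0 (y), from edgeR (blue, fell in both; red, rose in both; amber, other; open symbols, a group at or under 3 counts in each library, whose position depends on the prior count; dashed line, equal change). Of the 45 genes, 34 fell and 8 rose in both; AT4G36600 lies above the dashed line, at -7.29 in ros1-4 and -3.83 in Col-0, and M17 below it, at -6.69 in ros1-4 and -10.01 in Col-0.

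Of the 34 members that fell in both genotypes, 27 had an ABRE core in the upstream window (79.4%) and 19 a G-box (55.9%). Of the 8 that rose in both, 4 had an ABRE core (50%) and 0 a G-box. These counts describe lists drawn from the same data and carry no test. With library size in place of TMM the median of all genes was 1.68 in ros1-4 and 1.14 in Col-0, with 73.9% of genes higher and 18.7% lower in ros1-4, and 66.1% higher and 23.5% lower in Col-0. The medians of the members were then -5.11 in ros1-4 and -3.30 in Col-0, and 33 members fell in ros1-4 and 34 in Col-0.

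The second question was how mutant seeds differed from the wild type. In mature seeds 30 of 44 tested members were higher in ros1-4, against 13.8% of all genes, and 6 were lower, against 13%. The median log2 fold change of the members was 0.51, against -0.01 over all genes. The higher members held both Em genes, all 3 LEA_1 genes, 11 of 12 tested LEA_4 genes, 5 of 10 dehydrins, both PvLEA18 genes and 3 of 5 SMP genes. The lower members were the dehydrins COR47, ERD14 and HIRD11, the LEA_3 gene DI21, and M17 and M10 (AT2G41280) of the small AtM class. The first 4 of them also rose at stage II in both genotypes.

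AT4G36600 had 2570.2, 2285 and 2409 CPM in ros1-4 mature seeds, against 945, 951 and 993 CPM in Col-0 mature seeds (1.35 ± 0.07, adjusted p = 5.99e-09). AT5G53260 had 280.2, 236 and 294 CPM in ros1-4, against 116, 123 and 124 CPM in Col-0 (1.18 ± 0.08). Of its 31-base words, 20% also occur in AT5G53270, so its counts may be shared with that gene. AT2G42560 had 10087, 7791 and 8795 CPM in ros1-4, against 4159, 4343 and 4295 CPM in Col-0 (1.08 ± 0.10), and AT2G18340 had 565, 511 and 514 CPM in ros1-4, against 303, 304 and 318 CPM in Col-0 (0.81 ± 0.07). In these 4 genes every ros1-4 library was above every Col-0 library.

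The abundant members followed. RAB18 had 41545, 33417 and 39689.9 CPM in ros1-4, against 20994, 23347 and 25042 CPM in Col-0 (0.75 ± 0.10). AT3G15670 had 38502, 30349.7 and 36031 CPM in ros1-4, against 18160.4, 19206 and 19912 CPM in Col-0 (0.90 ± 0.10). AT2G21490 had 18987, 15747 and 17880.5 CPM in ros1-4, against 9957, 11598 and 11584 CPM in Col-0 (0.69 ± 0.10). None of the 3 overlapped between genotypes. EM6 had 16786, 14616 and 15449 CPM in ros1-4, against 10117, 9984 and 9887 CPM in Col-0 (0.67 ± 0.08). AT3G53040 had 9110.0, 6912 and 7431 CPM in ros1-4, against 4078, 4454 and 4766 CPM in Col-0 (0.84 ± 0.11), and AT3G17520 9645, 7782 and 9078 CPM, against 5623, 5745 and 5715 CPM in Col-0 (0.66 ± 0.09). LEA18 had 8032, 6772 and 7533 CPM in ros1-4, against 5537, 5915 and 5859 CPM in Col-0 (0.39 ± 0.08), and its share of all counts was 0.399% in ros1-4 and 0.385% in Col-0. LEA4-5 differed less, with 7668, 5741 and 6755 CPM in ros1-4, against 5486, 5259 and 5329 CPM in Col-0 (0.35 ± 0.10), and its call was lost without ros1-4 replicate 1 or Col-0 replicate 2 or 3 (adjusted p up to 0.0587). Its share of all counts was 0.360% in ros1-4 and 0.358% in Col-0. LEA27 was the one called member with overlapping groups (0.41 ± 0.12) and kept its call only without ros1-4 replicate 2, and AT2G23120 (0.36 ± 0.09) lost its call without Col-0 replicate 3 (adjusted p = 0.0522).

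Among the lower members, ERD14 had 34, 20 and 36 counts in ros1-4 mature seeds, against 71, 104 and 78 counts in Col-0 mature seeds (-1.17 ± 0.25), and COR47 6, 11 and 30 counts, against 64, 54 and 71 counts in Col-0 (-1.69 ± 0.37). Both were scarce in dry seeds and their groups did not overlap. DI21 had 35.2, 38.3 and 40.4 CPM in ros1-4, against 60.1, 63.5 and 55.5 CPM in Col-0 (-0.63 ± 0.08). HIRD11 had 20.3, 14.5 and 14.5 CPM in ros1-4, against 24.7, 23.0 and 22.6 CPM in Col-0 (-0.49 ± 0.14). These groups too were separate. M17 (chromosome 2, 17206452 to 17207698, plus strand) had 5616, 7039 and 5297 CPM in ros1-4, against 7671, 7708 and 8339 CPM in Col-0 (-0.38 ± 0.10). Its neighbour M10 had 2282, 2413 and 2539.6 CPM in ros1-4, against 2980.5, 2994 and 2821 CPM in Col-0 (-0.26 ± 0.07). The calls of HIRD11, M17 and M10 were each lost without 1 Col-0 library, replicate 1 for HIRD11 (adjusted p = 0.0599), replicate 3 for M17 (0.0549) and replicate 2 for M10 (0.0729).

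The counts in mature seeds depended on the scaling and on the fit. With library size alone the median of all genes was -0.34, with 3.02% of genes higher and 48.8% lower, and 22 members were higher and 8 lower at a median of 0.17. Of the members called higher with TMM, 8 were then not called: LEA18, LEA4-5, LEA14 (AT1G01470), LEA27, RAB28 (AT1G03120) and AT2G23120 lay between 0.01 and 0.16, and XERO1 (AT3G50980) and AT1G22600 just below 0. ECP31 and AT4G38410, not called with TMM, were then called lower. With all 18 libraries in one fit, which estimates the spread over all 6 groups, 3 of 45 members were higher (LEA26, LEA27 and AT5G53260), against 8.05% of all genes. In that fit 4 members were lower (COR47, ERD14, DI21 and HIRD11), against 12.7% of all genes, and the median of the members was 0.48. Neither count was above the share over all genes. Other transcripts moved with the genotype as well: the endosperm genes EPR1 (AT2G27380), EXPA2 (AT5G05290) and MAN7 (AT5G66460) together took 4.33 to 4.78% of counts in ros1-4 mature seeds, against 2.14 to 3.11% in Col-0. EPR1 made up nearly all of that sum. EXPA2 averaged 1.81 CPM in ros1-4 and 7.01 CPM in Col-0, and MAN7 16.2 CPM in ros1-4 and 40.6 CPM in Col-0. The green-tissue genes took 0.00216 to 0.00325% in ros1-4 mature seeds, against 0.00434 to 0.00611% in Col-0. Among them RBCS1A (AT1G67090) averaged 34.3 CPM in ros1-4 and 61.2 CPM in Col-0, but RBCS2B (AT5G38420) 2.23 and 1.59 CPM. The part of endosperm, green-tissue and reserve transcripts in the difference was not tested.

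**Figure D4:**
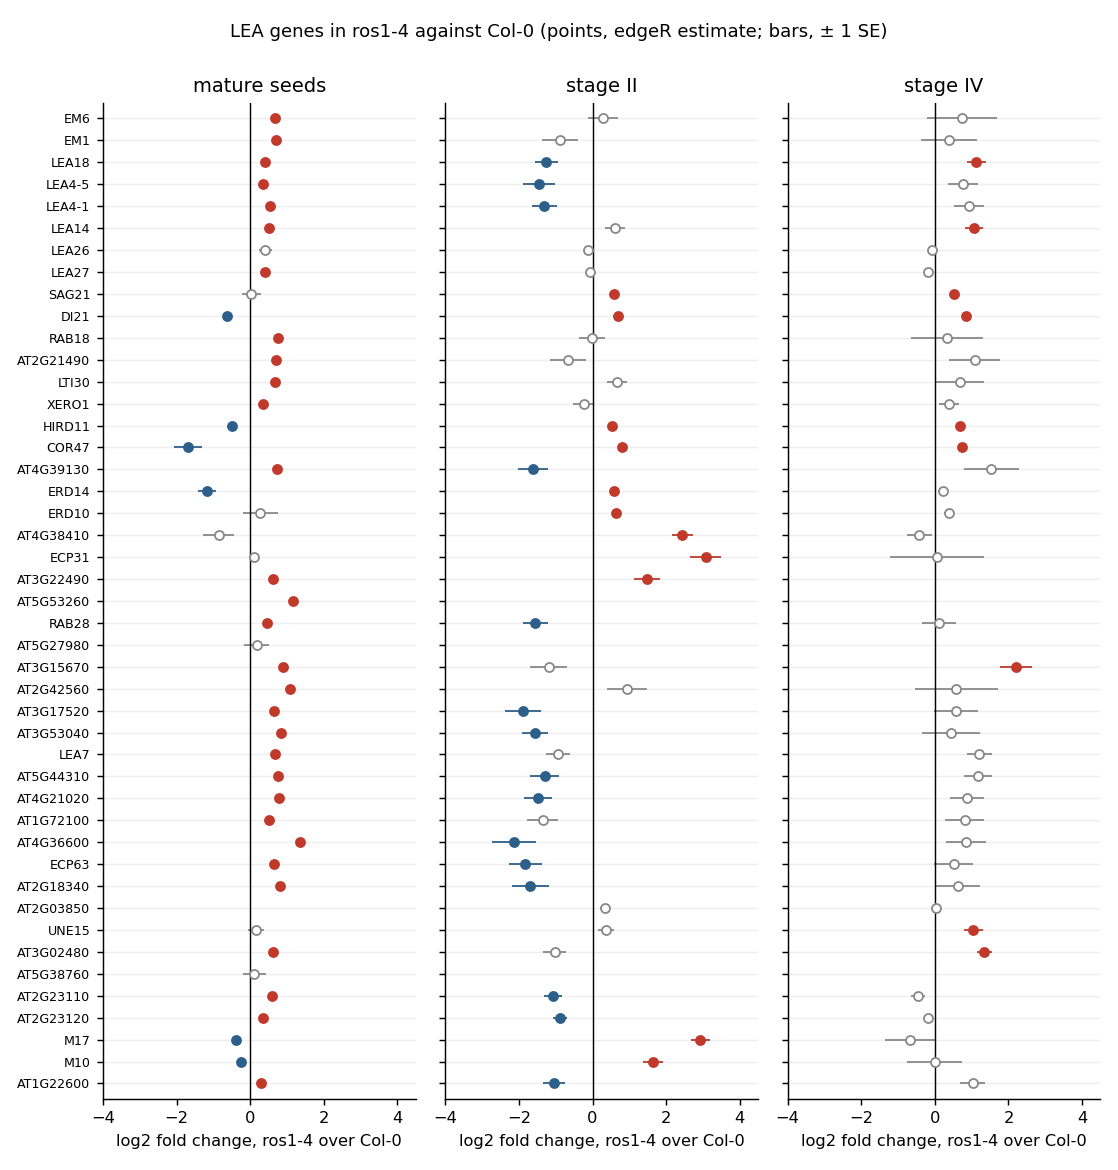
Log2 fold change of each LEA gene in ros1-4 over Col-0 (x, points with bars of ± 1 SE from edgeR) in 3 panels for mature, stage II and stage IV seeds, with members grouped by class (y). Filled red points were called higher and filled blue points lower at an adjusted p under 0.05, and open grey points were not called; 30 members were higher and 6 lower in mature seeds, 11 and 15 at stage II, and 9 and 0 at stage IV.

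At stage II the pattern was mixed. In the libraries labelled ros1-4, 11 of 42 tested members were higher, against 11.4% of all genes, and 15 were lower, against 11.1%. The median of the members was -0.45, against -0.00 over all genes. The higher members were M17, M10, the SMP genes ECP31 and AT3G22490, the LEA_3 genes SAG21 and DI21, and the dehydrins COR47, ERD10, ERD14, HIRD11 and AT4G38410. The lower members were 7 LEA_4 genes, all 3 LEA_1 genes, both PvLEA18 genes, the SMP gene RAB28, the dehydrin AT4G39130 and AT1G22600.

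M17 had 63.1, 39.5 and 77.5 CPM in ros1-4 at stage II, against 6.29, 8.37 and 8.94 CPM in Col-0 (2.93 ± 0.25, adjusted p = 0.000316). M10 had 120, 87 and 169 counts in ros1-4, against 37, 37 and 32 counts in Col-0 (1.64 ± 0.26), and ECP31 48, 102 and 111 counts, against 7, 13 and 7 counts in Col-0 (3.08 ± 0.42). In these seed genes every ros1-4 library was above every Col-0 library. Reserve transcripts were higher in the same ros1-4 libraries, as given above. The 3 endosperm genes took 0.376 to 0.397% of counts in ros1-4 at stage II, against 0.199 to 0.307% in Col-0, and 5 photosynthesis genes of green tissue 0.562 to 0.568%, against 0.448 to 0.4999% in Col-0. None of these sums overlapped between genotypes, but their genes did not all go the same way. EPR1 averaged 2391 CPM in ros1-4 and 1397 in Col-0, but EXPA2 469 and 539 CPM, and MAN7 78.6 and 112 CPM. LHCB1.3 (AT1G29930) averaged 900 CPM in ros1-4 and 255 in Col-0, LHCB2.1 (AT2G05100) 19.5 and 12.9, and PSBO1 (AT5G66570) 209 and 167. RBCS1A averaged 2498 CPM in ros1-4 and 2565 in Col-0, and RBCS2B 638 and 701. The part of these sums in the stage II differences was not tested. COR47 had 135, 121 and 135 CPM in ros1-4, against 83.9, 65.3 and 74.2 CPM in Col-0 (0.80 ± 0.09). DI21 had 126, 139 and 124 CPM in ros1-4, against 77.2, 96.2 and 68.0 CPM in Col-0 (0.69 ± 0.12). ERD10 had 15.9, 14.3 and 14.9 CPM in ros1-4, against 10.8, 8.62 and 9.67 CPM in Col-0 (0.63 ± 0.10). The replicates of these stress-related genes lay close together and the groups did not overlap. ERD14 had 29.8, 28.2 and 30.1 CPM in ros1-4, against 20.6, 22.2 and 15.4 CPM in Col-0 (0.59 ± 0.12). SAG21 had 535, 615 and 599.8 CPM in ros1-4, against 349, 381 and 433 CPM in Col-0 (0.59 ± 0.09). With 1 library left out, 9 to 12 members were higher, against 6.34 to 19.6% of all genes.

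The lower members rested on fewer libraries. AT4G36600 had 13.7, 17.4 and 17.03 CPM in ros1-4 at stage II, against 86.5, 108 and 14.7 CPM in Col-0 (-2.12 ± 0.59, adjusted p = 0.0369). AT3G17520 had 55.6, 70.3 and 63.5 CPM in ros1-4, against 271, 358 and 71.4 CPM in Col-0 (-1.89 ± 0.48). ECP63 (AT2G36640), a LEA_4 gene named after another carrot embryogenic cell protein, had 21.5, 26.6 and 23.4 CPM in ros1-4, against 100.4, 125 and 28.2 CPM in Col-0 (-1.83 ± 0.46). In each of the 3, Col-0 replicates 1 and 2 were several-fold above the other libraries, and Col-0 replicate 3 was near the level of ros1-4. AT2G18340 had 4.48, 4.97 and 4.94 CPM in ros1-4, against 21.5, 20.5 and 4.47 CPM in Col-0 (-1.69 ± 0.49). AT4G39130 had 1.57, 1.52 and 2.40 CPM in ros1-4, against 6.09, 8.20 and 2.60 CPM in Col-0 (-1.62 ± 0.40). RAB28 had 1.86, 2.21 and 1.67 CPM in ros1-4, against 5.81, 8.15 and 3.01 CPM in Col-0 (-1.56 ± 0.34). Of the 15 lower members, 4 had overlapping groups (AT4G36600, AT2G18340, LEA4-5 and AT5G44310).

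None of the 15 lower calls at stage II was kept in all of the 6 fits with 1 library left out. The number called lower was 22 without Col-0 replicate 3, 3 without Col-0 replicate 1 or 2, 1 without ros1-4 replicate 1 or 2, and 0 without ros1-4 replicate 3. Over all genes the share lower in ros1-4 was 17.4% without Col-0 replicate 3, and 7.86 and 7.67% without Col-0 replicates 1 and 2. It was 5.51, 5.63 and 5.17% without ros1-4 replicates 1, 2 and 3. The median of the members was -0.81 without Col-0 replicate 3 and -0.54 to -0.26 in the other 5 fits.

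**Figure D5:**
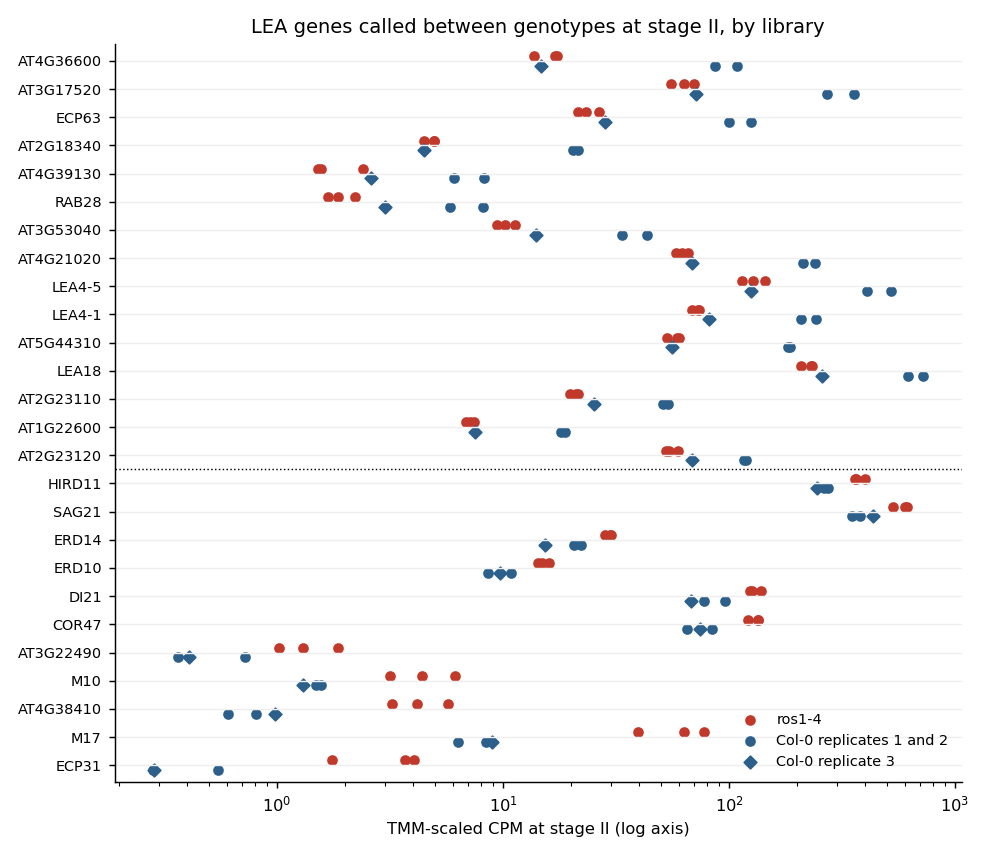
TMM-scaled CPM at stage II (x, log axis) in each library for the 26 LEA genes called between genotypes (y; the 15 lower in ros1-4 above the dotted line, the 11 higher below it; diamonds, Col-0 replicate 3). Above the line the diamonds sit near the ros1-4 points, as for AT4G36600 at 14.7 CPM, and below the line with the other Col-0 points, as for COR47 at 74.2 CPM.

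At stage IV, 9 of 41 tested members were higher in the libraries labelled ros1-4, against 3.72% of all genes, and 0 were lower in edgeR, against 4.5%. At an unadjusted p under 0.05, 1 member was lower (AT2G23110), and DESeq2 called 0. The median of the members was 0.62, against 0.01 over all genes. AT3G15670 had 125, 127 and 236 CPM in ros1-4 at stage IV, against 19.3, 26.8 and 60.9 CPM in Col-0 (2.19 ± 0.43, adjusted p = 0.0239). AT3G02480 had 257, 267 and 406 CPM in ros1-4, against 137, 95.1 and 135 CPM in Col-0 (1.35 ± 0.21). LEA18 had 93.3, 106 and 199.6 CPM in ros1-4, against 60.4, 57.9 and 65.4 CPM in Col-0 (1.12 ± 0.26). In these genes the lowest ros1-4 library was above the highest Col-0 library. LEA14 of class LEA_2 had 12.8, 10.6 and 16.7 CPM in ros1-4, against 4.26, 7.30 and 7.75 CPM in Col-0 (1.05 ± 0.24). DI21 had 70.0, 64.1 and 84.8 CPM in ros1-4, against 43.3, 40.3 and 39.1 CPM in Col-0 (0.84 ± 0.11). COR47 had 171, 169 and 197 CPM in ros1-4, against 93.7, 112 and 119.5 CPM in Col-0 (0.73 ± 0.11). These groups did not overlap either, and HIRD11 (0.68), SAG21 (0.51) and UNE15 (1.04) were the other higher members.

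DI21, COR47 and AT3G02480 were called at stage IV with any library left out. The number of higher members was 6, 3 and 5 without ros1-4 replicates 1, 2 and 3, against 1.79, 0.562 and 1.09% of all genes. It was 8, 4 and 8 without Col-0 replicates 1, 2 and 3, against 3.52, 0.916 and 3.94% of all genes. The median of the members was 0.09 without ros1-4 replicate 3 and 1.17 without Col-0 replicate 3. Storage reserve transcripts took 0.0421 to 0.114% of counts in ros1-4 at stage IV and 0.0287 to 0.0958% in Col-0, and replicate 3 was the highest in both genotypes. Endosperm genes took 0.299 to 0.342% in ros1-4 and 0.176 to 0.307% in Col-0, and green-tissue genes 0.630 to 0.825% in ros1-4 and 0.662 to 0.847% in Col-0, with overlap in both. The part of these transcripts in the result was not tested.

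COR47, DI21, SAG21 and HIRD11 were called higher in ros1-4 at both germination stages, whereas COR47, DI21 and HIRD11 were lower in ros1-4 mature seeds. The difference between these effects was tested as an interaction of genotype and stage on 12 libraries. From mature seeds to stage II the genotype difference became more positive for 8 of 45 members, against 10.4% of all genes, and more negative for 22, against 9.24%. M17 (3.29 ± 0.31), COR47 (2.48 ± 0.35), ERD14 (1.75 ± 0.28) and DI21 (1.3 ± 0.15) were among the 8, and AT4G36600 (-3.49 ± 0.61), AT3G53040 (-2.41 ± 0.40) and AT3G15670 (-2.10 ± 0.57) among the 22. All 8 positive and 19 of the 22 negative calls were kept with any library left out. With library size alone the median of all genes in this test was 0.45, with 38.7% of genes more positive and 2.41% more negative, and 10 members were more positive and 19 more negative.

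Between stage II and stage IV few genotype differences changed. The interaction was positive for 4 of 42 members, against 1.06% of all genes, and negative for 2, against 2.4%. The positive ones were AT3G15670 (3.35 ± 0.76), LEA18 (2.35 ± 0.47), AT3G02480 (2.34 ± 0.43) and AT1G22600 (2.05 ± 0.51), and the negative ones M17 (-3.62 ± 0.85) and AT4G38410 (-2.90 ± 0.49). The number of positive calls was 18 without Col-0 replicate 3 at stage II, against 4.05% of all genes. It was 0 without any other stage II library or without Col-0 replicate 2 at stage IV, against 0.0924 to 0.2% of all genes. Without each remaining library it was 2 to 5, against 0.195 to 2.07% of all genes. Of the 6 calls, that of AT4G38410 was kept with any library left out.

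From stage II to stage IV many of the seed members fell again. In ros1-4, 18 of 42 fell, against 19.2% of all genes, and 5 rose, against 20.7%. In Col-0, 22 of 41 fell, against 16.8%, and 7 rose, against 21.8%. In ros1-4, M17 had 5.55, 16.1 and 21.3 CPM at stage IV, against 63.1, 39.5 and 77.5 CPM at stage II (-2.09 ± 0.37). AT2G21490 had 10.8, 16.5 and 46.6 CPM, against 53.2, 53.7 and 57.2 CPM at stage II (-1.17 ± 0.39). LEA4-5 had 43.4, 49.5 and 83.8 CPM, against 115, 144 and 128 CPM at stage II (-1.15 ± 0.20). In each of the 3, replicate 3 was the stage IV library nearest to stage II, without overlap. AT1G72100, a LEA_4 gene, had 6.12, 6.76 and 18.1 CPM, against 18.2, 21.5 and 23.6 CPM at stage II (-1.05 ± 0.33). The number that fell in ros1-4 was 31 without stage IV replicate 3, against 22.2% of all genes. It was 10 and 6 without stage IV replicates 1 and 2, against 13.1 and 13.55% of all genes. Without stage II replicates 1, 2 and 3 it was 8, 7 and 7, against 12.6, 12.5 and 11.4% of all genes. It was 11 of 43 in DESeq2, against 12.87% of all genes. With all 18 libraries in one fit it was 3 of 45, against 10.06% of all genes. In that fit the members did not fall more often than all genes.

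In Col-0, AT3G15670 had 19.3, 26.8 and 60.9 CPM at stage IV, against 709, 957 and 166 CPM at stage II (-4.07 ± 0.71). AT4G36600 had 1.93, 5.18 and 7.02 CPM, against 86.5, 108 and 14.7 CPM at stage II (-3.87 ± 0.76). AT4G39130 had 0.118, 0.321 and 0.898 CPM, against 6.09, 8.20 and 2.60 CPM at stage II (-3.63 ± 0.63). The stages did not overlap, and replicate 3 was the lowest at stage II in each of them. LEA4-5 had 15.3, 36.4 and 51.7 CPM, against 408, 522 and 125 CPM at stage II (-3.32 ± 0.61).

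The dehydrins ERD14, ERD10 and COR47 were higher at stage IV than at stage II in both genotypes, and HIRD11 was not called in either (0.03 ± 0.08 in ros1-4, -0.07 ± 0.09 in Col-0). AT4G38410 fell in ros1-4 (-0.74 ± 0.25) and rose in Col-0 (2.18 ± 0.37). ERD14 had 60.2, 48.5 and 53.0 CPM at stage IV in ros1-4, against 29.8, 28.2 and 30.1 CPM at stage II (0.85 ± 0.08), and 38.0, 54.0 and 47.6 CPM in Col-0, against 20.6, 22.2 and 15.4 CPM (1.28 ± 0.17). ERD10 had 26.9, 25.7 and 34.8 CPM in ros1-4, against 15.9, 14.3 and 14.9 CPM at stage II (0.93 ± 0.11), and 19.1, 24.8 and 23.1 CPM in Col-0, against 10.8, 8.62 and 9.67 CPM (1.22 ± 0.13). The stages were separate for both genes. COR47 rose by 0.44 ± 0.07 in ros1-4 and 0.57 ± 0.12 in Col-0, AT2G03850 by 0.77 ± 0.11 in ros1-4 and 1.13 ± 0.14 in Col-0, and LEA26 by 0.41 ± 0.06 in ros1-4 and 0.40 ± 0.07 in Col-0. All 5 rises in ros1-4 were called with any library left out. At stage IV the highest levels per kilobase of coding length were those of AT3G02480 (1497 ± 402 CPM per kb, SD), HIRD11 (1310 ± 143) and SAG21 (870.3 ± 28.9) in ros1-4, and of HIRD11 (822 ± 86.6), SAG21 (610.4 ± 78.4) and AT3G02480 (590.6 ± 114) in Col-0. AT3G02480 and HIRD11 in ros1-4, and SAG21 and AT3G02480 in Col-0, did not differ beyond their spread.

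Of 20 listed regulators of LEA genes, 14 could be tested in mature seeds, where 4 were higher in ros1-4, against 13.8% of all genes, and 3 lower, against 13%. ABI3, which directs seed maturation, was higher in mature seeds (0.30 ± 0.06), lower at stage II (-0.60 ± 0.15) and higher at stage IV (0.71 ± 0.15). Stage II libraries held 4028, 4106 and 4104 ABI3 counts in ros1-4, against 5936, 6335 and 4093 counts in Col-0, with Col-0 replicate 3 at the level of ros1-4. ABI5, a bZIP factor that binds ABREs of Em genes, was higher in mature seeds (0.45 ± 0.09). Stage II libraries held 749, 746 and 827 ABI5 counts in ros1-4, against 1264, 1474 and 426 counts in Col-0, which was not called (-0.63 ± 0.38, adjusted p = 0.268). Stage IV libraries held 358, 426 and 673 counts in ros1-4, against 109, 172 and 264 counts in Col-0, which narrowly missed the threshold (1.31 ± 0.34, adjusted p = 0.0523). DREB2A (AT5G05410, 0.35) and bZIP10 (AT4G02640, 0.24) were also higher in mature seeds, and FUS3 (AT3G26790, -0.51), ABI4 (AT2G40220, -0.70) and ABF1 (AT1G49720, -0.39) lower.

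At stage II, 14 regulators could be tested, and 2 were higher in ros1-4, against 11.4% of all genes, and 3 lower, against 11.1%. The higher count was near the share over all genes. The ABRE-binding factor ABF1 had 448, 380 and 375 counts in ros1-4, against 24, 30 and 18 counts in Col-0 (3.88 ± 0.17), with no overlap. EEL (AT2G41070), another bZIP factor, was higher (0.57), and ABF3 (AT4G34000, -1.30) and ABF4 (AT3G19290, -0.80) were lower beside ABI3. At stage IV, 16 could be tested, and ABI4 (0.64) and DREB2A (1.33) were higher beside ABI3, against 3.72% of all genes.

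The table counts transcripts, and 17 members have 2 or more models. Models were compared only for those of them with at least 100 counts in each library of 2 or more groups. LEA26 was split between its models, with 56.7% of its counts on the second in ros1-4 at stage II and 57.2% in Col-0. The second ERD14 model held 84.7% in ros1-4 at stage II (78.7 to 94.4%) and 76.9% in Col-0 (65.4 to 87.9%), and the groups overlapped. The second model of AT2G23110 held 12.2% in ros1-4 at stage II (7.89 to 14.4%) and 5.20% in Col-0 (3.74 to 7.83%), which did not overlap. At stage IV it held 7.30% in ros1-4 and 10.4% in Col-0, with overlap. The strand setting of the counting is not given in the sources used here, so counts of the 10 members that overlap another annotated gene, RAB18, SAG21, LEA7 (AT1G52690) and UNE15 among them, may include reads of that gene. The same limit holds for the regulators EEL, ABF1, ABF3, ABF4 and DREB2A. Of the neighbouring member pairs, ECP31 and AT3G22490 shared 1.08% of the 31-base words of ECP31.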

How the data were processed

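RNA of whole seeds was sequenced by the authors as single-end reads of 50 bases (BGISEQ-500) and quantified per transcript on the Araport11 transcriptome with Salmon 1.2. The deposited table holds the resulting estimated counts of the authors for 48268 transcripts in 18 libraries, not normalised for depth or length. The strand setting is not given in the sources used here. The values of a gene's transcripts were added up and the sums rounded to integers. Genes were tested with edgeR 4.0.16 in R 4.3.3 (TMM, filterByExpr, quasi-likelihood F-test, two-sided) in 7 comparisons on the 6 libraries of each, and in 2 interactions on 12 libraries. Benjamini-Hochberg adjustment ran over all genes tested, and calls required an adjusted p under 0.05 at any fold. Values after ± are SE for log2 fold changes and SD for levels and shares. The fit was tested on simulated data with the same spread setting for every gene and no outlying library. That test therefore does not bear on calls that depend on a single library.

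Groups and replicate numbers came from the labels, and the authors describe the 3 replicates as biological. The members, classes, regulators and marker lists were chosen with earlier results of these data known, and so was the rule for named genes. By that rule values per library are given for the 10 most abundant members of mature seeds, for up to 6 called members of largest change in each direction between genotypes and up to 4 between stages IV and II (mean of at least 5 CPM in 1 group), for members that were higher at stage II than in mature seeds, for regulators called between genotypes (as fold changes), for ABI3 and ABI5, and for ROS1. The values of M10 at stage II, of ECP31 and of AT5G53260 at stage II, the counts of ABF1 and the 3 genes with transcript models were added after their values were seen. The alternatives were DESeq2 size factors, library size alone, the DESeq2 1.42.0 Wald test, no filter on low counts, 1 fit of all 18 libraries, the replicate number as a block, and leaving out each library. Upstream windows came from RefSeq TAIR10.1, which matched 27392 of the genes. Protein sequences were not used here.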

Additional observations from a re-analysis of the deposited data

Results flagged for a closer look

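The genotype difference at stage II differed from that in mature seeds, by the interaction test in edgeR, for 30 members, and each value here is the log2 fold change of ros1-4 over Col-0 at stage II minus that in mature seeds. It was positive for M17 (3.29), AT4G38410 (3.29), ECP31 (2.94), COR47 (2.48), M10 (1.89), ERD14 (1.75), DI21 (1.3) and HIRD11 (1.00). Among the LEA_4 genes it was negative for AT4G36600 (-3.49), AT3G17520 (-2.56), AT2G18340 (-2.51), ECP63 (-2.48), AT3G53040 (-2.41), AT4G21020 (-2.27), AT3G15670 (-2.10), AT5G44310 (-2.06), AT1G72100 (-1.89) and LEA7 (-1.61). In the other classes it was negative for AT4G39130 (-2.35), RAB28 (-2.03), LEA4-1 (-1.85), LEA4-5 (-1.81), AT2G23110 (-1.66), LEA18 (-1.66), AT3G02480 (-1.65), EM1 (-1.59), AT1G22600 (-1.34), AT2G23120 (-1.25), LEA26 (-0.56) and LEA27 (-0.49). Of the 22 negative calls, 19 were kept with any library left out. Without Col-0 replicate 3 at stage II 27 members were called negative, against 11.2% of all genes.

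Between stages IV and II the genotype difference differed for 6 members. The value at stage IV minus that at stage II was 3.35 for AT3G15670, 2.35 for LEA18, 2.34 for AT3G02480, 2.05 for AT1G22600, -2.90 for AT4G38410 and -3.62 for M17.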

How the results depend on the processing

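The calls of falling and rising members at stage II against mature seeds stayed within 1.5 times their number under every alternative, as did the interaction of mature seeds and stage II. In mature seeds the number of members higher in ros1-4 was 3 with all 18 libraries in one fit, where 8.05% of all genes were higher. It was 30 in the main fit, where 13.8% of all genes were higher. At stage II 0 to 22 members were lower in ros1-4 with 1 library left out, against 5.17 to 17.4% of all genes. At stage IV 3 to 8 were higher, against 0.562 to 3.94% of all genes, and 0 to 1 lower, against 0.952 to 5.03%. From stage II to IV in ros1-4, 11 members fell in DESeq2, 3 with all 18 libraries in one fit and 6 to 31 with 1 library left out. Over all genes 12.87%, 10.06% and 11.4 to 22.2% fell, in that order. The interaction of stages IV and II was positive for 8 members in DESeq2, 11 with all 18 libraries and 0 to 18 with 1 library left out. The shares over all genes were 2.24%, 1.91% and 0.0924 to 4.05%. In these fits the interaction was negative for 1 to 2 members, against 0.467 to 9.37% of all genes. Without the 10 most abundant genes of each library, the LEA share was 8.59% in Col-0 mature seeds and 0.482% in ros1-4 at stage II. The cause of these changes was not tested, beyond the fewer libraries of some fits.

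With library size alone the sign turned for XERO1 (-0.0014) and ECP31 (-0.22) in mature seeds, for AT1G22600, ros1-4 against Col-0 in mature seeds (-0.0537), and for UNE15 (0.0279) and AT3G02480 (0.94) at stage II against mature seeds in ros1-4. With 1 library left out, SAG21 in mature seeds ranged from -0.53 to 0.30, called at -0.53 without ros1-4 replicate 3, and ECP31 from stage II to IV in ros1-4 from -2.46 to 0.58, called at -2.46 without ros1-4 replicate 3 at stage IV. With DESeq2 size factors all 387 values kept their direction and side of the threshold, in DESeq2 363 of 387, and without a filter 380 of 387.

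Deviations of libraries with the same replicate number correlated between -0.13 and 0.14, and those with different numbers between -0.15 and 0.24. With 3 libraries a group, these values cannot exclude a pairing by replicate number. With the replicate number as a block, 5 members were lower at stage II, 13 higher at stage IV, 23 fell from stage II to IV in ros1-4, and 1 was positive in the interaction of stages IV and II. The shares over all genes in these fits were 7.94, 1.65, 18.65 and 0.435%, in that order. With 3 libraries a group, 1 library can decide a call, and members near 3 counts give bounds alone.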
